A study of Homo sapiens with 8 samples.

Results

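The 8 genes described here write, copy or remove methyl groups on the cytosines of CpG sites in DNA, or open chromatin so that this can happen. They are DNMT1, DNMT3A, DNMT3B, UHRF1, HELLS, TET1, TET2 and TET3, and they were found by the gene symbol among the 16782 genes of the deposited table, where each of the 8 has 1 row. The members were chosen by function, but with the comparison of treated and control cells already known, and in that sense were selected on it. DNMT3A is in the study's own list of changed genes, and HELLS had passed the threshold of an earlier paired fit of the same values. Their differences between the groups are therefore given as a description, without a test of their own. The RNA came from CAKI1 cells, an established human renal cell carcinoma line. All cells were deprived of serum for 24 h. The 4 samples called hLcn-2 then received iron-loaded lipocalin-2, an iron-carrying secreted protein, at 5 µg/mL for 24 h, and the 4 control samples were left unstimulated. Samples of both groups carry the numbers 1 to 4. The labels do not say that the numbers stand for separate cultures, so that the spread between samples may in part be technical, and the data come from a single cell line.

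DNA methylation is put in place by de novo methyltransferases, DNMT3A and DNMT3B, and is copied onto the new strand after DNA replication by the maintenance enzyme DNMT1. UHRF1 recognises the half-methylated CpG behind the replication fork and brings DNMT1 to it, while HELLS, a chromatin remodeler of the SNF2 family, makes nucleosomal DNA accessible to the methyltransferases. TET1, TET2 and TET3 oxidise 5-methylcytosine and thereby start its removal. They need Fe(II) and 2-oxoglutarate, so that the erasers of this system are iron-dependent enzymes. In clear cell renal carcinoma, changed DNA methylation is a well-known feature of the tumor. Only mRNA was measured here, neither DNA methylation nor protein.

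The values are normalized counts on the scale of CPM, which relates the reads of a gene to all reads of its library. The libraries read the 3′ end of each mRNA once, so that levels of different genes were compared without division by transcript length. Total reads ranged from 1501563 in control 4 to 13953090 in control 1. The shallowest hLcn-2 sample, number 3, had 2088266 reads. A gene with 3 reads would lie at 0.211 in the deepest and at 1.98 in the shallowest library. Genes of the renal tubular epithelium such as PAX8 (226 ± 22.4 in controls and 223 ± 18.3 after hLcn-2, SD, n = 4 each) were expressed, and the summed level of the 8 markers of that list was 2453 to 3027 in controls and 2709 to 3246 after hLcn-2. Most of that sum was VIM, which mesenchymal cells express as well (1664 ± 310 and 1874 ± 319, SD, n = 4 each). The markers moved unequally, since VIM (log2 fold change 0.17) and CDH2 (0.30) were higher and CDH6 (-0.32) and CD24 (-0.37) lower in 4 of 4 pairs, and none was called by limma with or without the block. Among 6 markers of leukocytes, endothelium and hepatocytes, ALB lay between 0 and 1.48 in the 8 samples, and the others had no row under their symbols.

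Both samples with the number 3 stood apart from the rest. The summed level of 16 S-phase and proliferation genes was 951 in control 3 and 813 in hLcn-2 sample 3, but between 1934 and 2542 in the other 6 samples. Control 4, the shallowest library, is the other sample on which single values rest. In bulk RNA, fewer cells in S phase and less RNA per cell cannot be told apart.

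The members with E2F-type letters at their start are shown first, because E2F factors switch on S-phase genes. The part of these letters in the levels described below was not tested. RefSeq promoters of GRCh38.p14, from 250 bases before to 50 after the start of transcription, were found for all 8 genes, and for each the one nearest to the start of the main GENCODE 44 transcript was read. For DNMT3B it lies 17467 bases away from that start, so that this promoter is not considered further. They were searched on both strands for TTTCCCGC, TTTCGCGC, TTTGCCGC and TTTGGCGC, overlaps included. Among all 35116 promoters of the table, 3.31% hold at least 1 of these. HELLS has 2 matches, DNMT1 and UHRF1 have 1 each, and the promoters of DNMT3A, TET1, TET2 and TET3 have none. The windows below have 30 bases, run 5′ to 3′ along the gene and give the match in capitals, with its first letter 76 and 8 bases before the start in HELLS, 2 in DNMT1 and 14 in UHRF1. They lie at chr10:94545701-94545730 and chr10:94545769-94545798 (plus strand), chr19:10194937-10194966 (minus strand) and chr19:4909476-4909505 (plus strand).
HELLS, far match: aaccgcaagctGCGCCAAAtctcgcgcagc
HELLS, near match: gatgacaggatTTTCCCGCgaaggagaagc
DNMT1: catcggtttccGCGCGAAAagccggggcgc
UHRF1: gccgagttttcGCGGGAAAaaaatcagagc
Such letters describe the sequence and do not show that a factor binds there.

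In order of level, DNMT1 had the highest mean over the 8 samples (129.9 normalized counts), followed by HELLS (84.9), DNMT3A (58.3), TET2 (44.9), DNMT3B (43.5), TET3 (13.9), UHRF1 (4.24) and TET1 (2.16). Of neighbours in this order, DNMT3B and TET3 as well as TET3 and UHRF1 had ranges that were apart over all samples, and the other neighbours overlapped. DNMT1 was above HELLS within each of the 8 samples, although their ranges overlapped, whereas TET2 was above DNMT3B in only 3 of 8. UHRF1 and TET1 were so low, with 7 to 78 and 4 to 36 reads per sample, that their levels rest on few molecules. TET2 made up 68.3% to 80.0% of the summed TET mRNA in every sample, and was thus the main TET transcript of these cells.

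**Figure D1:**
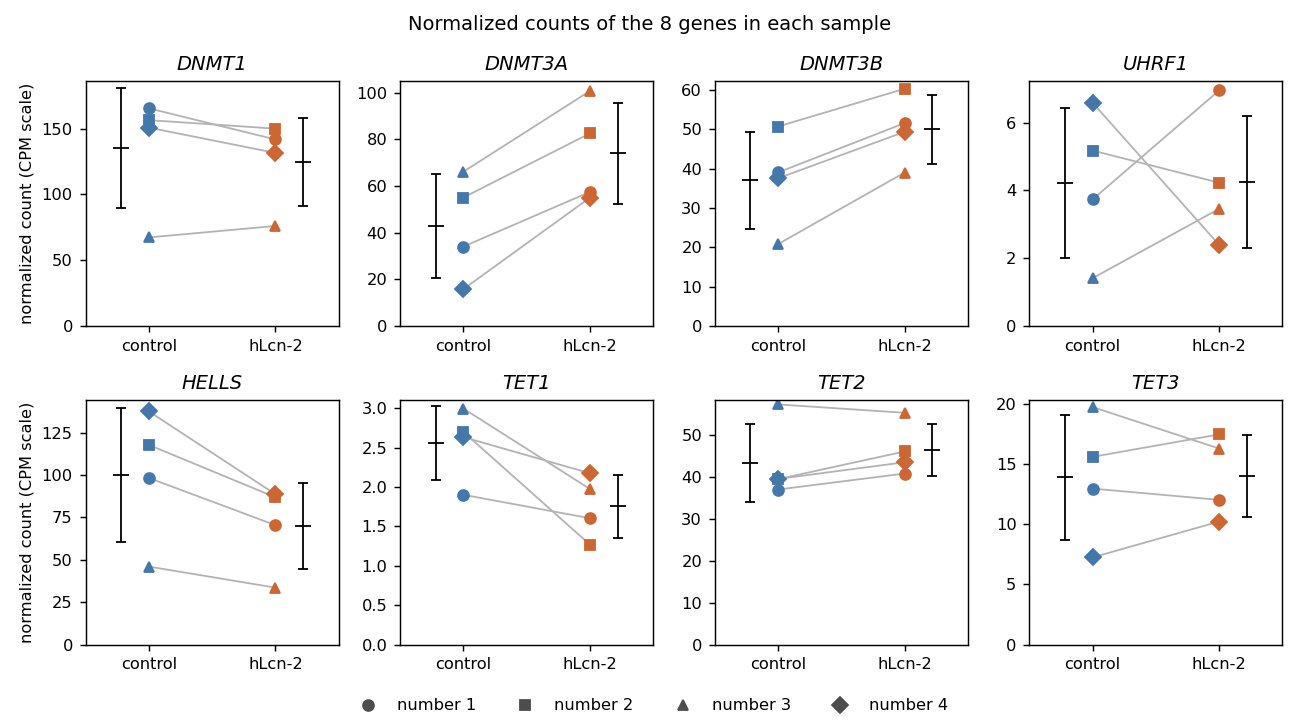
Normalized counts (CPM scale, linear axes from 0) of the 8 genes in the 4 control and 4 hLcn-2 samples, where grey lines join samples with the same number and black bars give the mean ± SD of each group. The grey lines of DNMT3A and DNMT3B all point up and those of HELLS and TET1 all point down, while the groups overlap in all 8 genes.

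Among the writers, DNMT3A showed the largest difference between the groups. DNMT3A establishes methylation on unmethylated CpG sites and is frequently mutated in leukemia. In controls 1 to 4 it had 34.0, 55.1, 66.1 and 15.8 normalized counts. In hLcn-2 samples 1 to 4 it had 57.5, 82.6, 101 and 55.0. Each hLcn-2 sample was thus above the control with its number, although control 3 exceeded hLcn-2 samples 1 and 4. The means were 42.7 ± 22.4 in controls and 73.9 ± 21.8 after hLcn-2 (SD, n = 4 each), 1.73 times as high, and the difference on the log2(normalized count + 1) scale was 0.91 (standard error 0.37). Within the pairs the log2 difference was 0.74, 0.58, 0.60 and 1.74. The value of pair 4 rests on control 4, where DNMT3A had 24 reads, and its 95% Poisson interval of 10.1 to 23.5 normalized counts covers counting error only. Without control 4 the log2 fold change was 0.51. The fits of read counts with all samples also lay below 0.91. Without the block edgeR gave 0.74 and DESeq2 0.77, and with the block 0.79 and 0.82. Pair 3, in which the S-phase genes were low, gave a difference close to those of pairs 1 and 2.

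DNMT3A (ENSG00000119772) occupies bases 25227855 to 25342590 of chromosome 2 in GRCh38, minus strand, and its main transcript has 23 exons. The last exon, from 25227874 to 25234420, holds a long untranslated end of 6408 nt, and no exon of another gene overlaps it. As this member had the largest difference, its upstream region is shown too, 250 bases of RefSeq sequence (GRCh38.p14) at chr2:25341926-25342175 on the minus strand, 5′ to 3′, with each CpG in capitals.
DNMT3A upstream: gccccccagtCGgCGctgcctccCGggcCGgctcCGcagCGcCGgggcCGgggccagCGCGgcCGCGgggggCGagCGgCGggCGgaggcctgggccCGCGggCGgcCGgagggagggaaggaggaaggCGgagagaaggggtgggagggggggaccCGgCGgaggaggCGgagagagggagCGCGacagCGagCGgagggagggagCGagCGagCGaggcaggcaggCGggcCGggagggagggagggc
With the 50 bases after the start, this promoter holds 46 CpG, more than 97.1% of all promoters of the table, whose median is 14. The TET3 promoter is nearly as dense with 45, while that of TET1 has 10. DNMT3A has 6 promoters in RefSeq, and 3′ reads do not tell which of them was used.

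DNMT3B, the second de novo enzyme, was also higher after hLcn-2 in each pair. Its normalized counts were 39.0, 50.7, 20.8 and 37.5 in controls 1 to 4, and 51.6, 60.3, 39.0 and 49.4 in hLcn-2 samples 1 to 4. Control 3 was the lowest control and hLcn-2 sample 3 the lowest treated sample, and control 2 lay above 2 of the treated samples. With means of 37.0 ± 12.3 and 50.1 ± 8.75 (SD, n = 4 each), DNMT3B differed by 0.48 on the log2 scale (standard error 0.24). The pairs gave 0.39, 0.25, 0.88 and 0.39, so that the largest difference came from number 3. Without pair 3 the mean difference was 0.34, and without control 3 alone it was 0.23. DNMT3B occupies bases 32762385 to 32809359 of chromosome 20, plus strand.

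The maintenance methyltransferase DNMT1 differed between the groups by less than the spread of the replicates. Its controls 1 to 4 had 165, 156, 67.3 and 151 normalized counts, and hLcn-2 samples 1 to 4 had 142, 150, 76.0 and 132. Both samples of number 3 were at about the same low level, and the other 6 lay close together. DNMT1 differed by -0.076 on the log2 scale, with a standard error of 0.29. It was lower after hLcn-2 in pairs 1, 2 and 4 and higher in pair 3. Leaving out 1 sample moved it between -0.38 (without control 3) and 0.14 (without hLcn-2 sample 3), and without control 1, 2 or 4 it was also above 0, at 0.049, 0.022 and 0.0045.

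UHRF1, the partner of DNMT1 at the replication fork, had 3.73, 5.18, 1.41 and 6.58 normalized counts in controls and 6.95, 4.23, 3.46 and 2.39 after hLcn-2. It was higher in 2 pairs and lower in 2, with pair differences between -1.16 and 0.89 on the log2 scale. In control 4 the value of 6.58 came from 10 reads (95% Poisson interval 3.16 to 12.1) and in hLcn-2 sample 4 the value of 2.39 from 11 reads (1.19 to 4.28). In pair 1, with 53 and 78 reads, the intervals were 2.80 to 4.88 in the control and 5.49 to 8.67 after hLcn-2. These did not overlap, whereas the intervals of pair 4 did. The part of counting error in the disagreement between pairs was not tested. No difference between the groups was detected.

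Because all 3 methyltransferases were read in the same library, their shares do not depend on its scaling. DNMT1 made up 61.6% ± 13.4 of their summed normalized counts in controls and 49.7% ± 9.91 after hLcn-2 (SD, n = 4 each), and its share was lower in 4 of 4 pairs. The share of DNMT3A was 21.5% ± 15.3 and 30.3% ± 11.2, and that of DNMT3B 16.9% ± 2.59 and 20.04% ± 1.32. Both de novo shares were higher in 4 of 4 pairs. The 3 shares add up to the whole, so that they restate the levels given above and are no further result. In pair 3, DNMT1 itself was higher after hLcn-2 although its share was lower. The ranges overlapped for DNMT1 (43.7% to 73.9% and 35.2% to 56.5%), for DNMT3A (7.74% to 42.9% and 22.9% to 46.7%) and for DNMT3B (13.5% to 19.3% and 18.1% to 20.9%). The share of DNMT3A was highest in the samples of number 3, with 42.9% in the control and 46.7% in the hLcn-2 sample, and lowest in control 4.

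**Figure D2:**
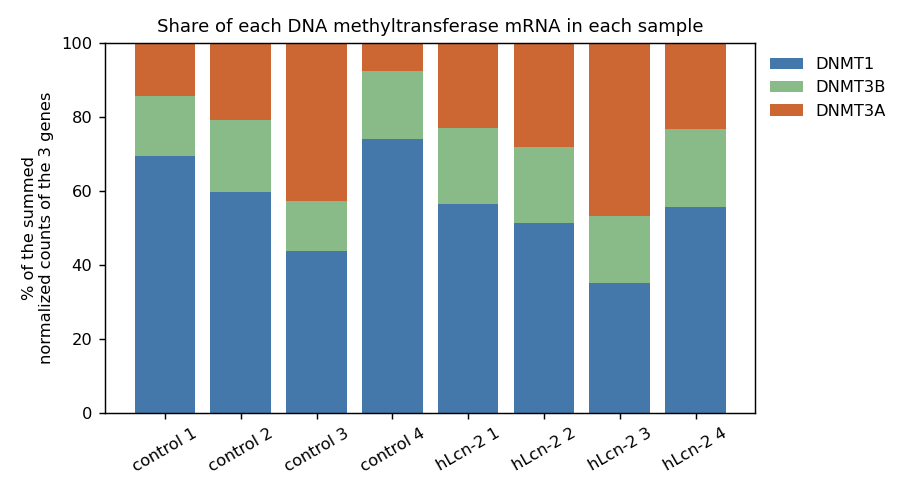
Share (%) of DNMT1, DNMT3B and DNMT3A in the summed normalized counts of the 3 genes, as 1 stacked bar for each sample. In each numbered pair DNMT1 takes less of the bar after hLcn-2, and in both samples of number 3 DNMT3A takes its largest shares (42.9% and 46.7%).

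HELLS was lower in every pair, and by nearly the same amount. HELLS is needed for normal levels of DNA methylation, and its loss causes an immunodeficiency with unstable centromeres, as does that of DNMT3B. Normalized counts were 98.3, 118, 46.0 and 138 in controls 1 to 4, and 70.5, 86.9, 33.6 and 88.7 in hLcn-2 samples 1 to 4. Both samples of number 3 lay below all others, and control 3 lay below 3 of the 4 treated samples. With means of 99.9 ± 39.4 and 69.9 ± 25.6 (SD, n = 4 each), HELLS differed by -0.50 on the log2 scale, with a standard error of 0.35. The pair differences were -0.48, -0.43, -0.44 and -0.63, with an SD of 0.090. On the same log2 scale the SD was 0.69 between the controls and 0.65 between the hLcn-2 samples. HELLS was chosen with an earlier paired fit known, which favours genes whose pairs agree, so nothing is read from this agreement. Leaving out pair 3 gave a mean difference of -0.51, but leaving out hLcn-2 sample 3 alone gave -0.18 and control 3 alone -0.83. Within a library, HELLS had 2.21 to 3.67 times the level of DNMT3B in controls and 0.861 to 1.80 times after hLcn-2. This ratio was looked at after the values were seen. With HELLS lower and DNMT3B higher in each pair, it restates those differences and is no further result. The ratio of HELLS to DNMT1 overlapped between the groups, with 0.594 to 0.913 in controls and 0.442 to 0.674 after hLcn-2. HELLS occupies bases 94545329 to 94613905 of chromosome 10, plus strand, with 22 exons in its main transcript, none of which overlaps an exon of another gene.

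**Figure D3:**
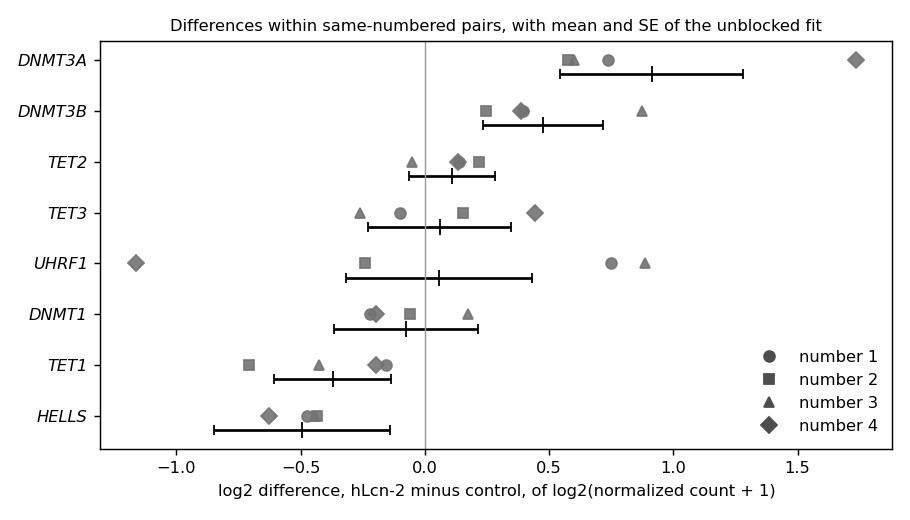
Difference between hLcn-2 and control within each numbered pair, on the scale of log2(normalized count + 1), for the 8 genes (grey symbols, 1 per pair), with the log2 fold change and its standard error from the fit without the replicate block (black). The 4 symbols of HELLS, chosen with an earlier paired fit known, lie between -0.63 and -0.43. Those of UHRF1 spread from -1.16 to 0.89.

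Among the erasers, neither TET2 nor TET3 differed between the groups by more than the replicate spread. TET2, which is often mutated in blood cancers, had 37.0, 39.5, 57.3 and 39.5 normalized counts in controls 1 to 4 and 40.8, 46.1, 55.3 and 43.5 in hLcn-2 samples 1 to 4. Here the samples of number 3 were the highest of each group, opposite to HELLS and DNMT1. TET2 differed by 0.11 on the log2 scale, with a standard error of 0.17 and pair differences from -0.050 to 0.22.

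TET3 had 13.9 ± 5.24 normalized counts in controls and 14.0 ± 3.44 after hLcn-2 (SD, n = 4 each). It was higher in 2 pairs and lower in 2, and control 4, the lowest at 7.24, rested on 11 reads. TET1, the lowest member, had 1.90, 2.70, 3.00 and 2.63 in controls and 1.60, 1.27, 1.97 and 2.17 after hLcn-2. In 4 of 4 pairs TET1 was lower, with a difference of -0.37 on the log2 scale (standard error 0.23), but control 4 and hLcn-2 sample 3 had 4 reads each. The 95% Poisson intervals of those values, 0.718 to 6.74 and 0.538 to 5.06, take in every other TET1 value. Summed over the 3 genes, TET mRNA was 59.8 ± 14.0 in controls and 62.2 ± 8.87 after hLcn-2.

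Set against all 15593 genes tested, those that reached 1 CPM in 2 samples or more, the members gave these counts. Limma without a replicate block called 0 of 8 members and 0% of all genes at an adjusted p of 0.05, and 355 genes had an unadjusted p under 0.05 (edgeR called 0 with 324, DESeq2 0 with 284). With the replicate number as a block, 2 of 8 were called, DNMT3A as higher and HELLS as lower, beside 0.282% of all genes (44 genes). Since this contrast was known when the members were chosen, nothing is read from that count. In all 4 pairs, DNMT3A and DNMT3B were higher (2 of 8, beside 9.93% of all genes) and HELLS and TET1 were lower (2 of 8, beside 10.9%). No member had groups without overlap, beside 1.88% of all genes. The call of HELLS with the block was lost when any pair was left out, and that of DNMT3A without pair 2 or pair 3. Neither was called with the block when 0.1 was added in place of 1 before taking logs, or without the intensity trend. The median log2 fold change of the 8 members was 0.059, and that of all genes tested 0.00083.

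HELLS moved across the samples with the S-phase genes, a list that holds MKI67, PCNA, MCM2 to MCM7, RRM2 and others. The median S-phase gene had 75.4, 84.7, 32.6 and 85.0 normalized counts in controls 1 to 4 and 59.2, 73.5, 28.9 and 72.1 in hLcn-2 samples 1 to 4. On the log2 scale HELLS had a Pearson r of 0.97 and a Spearman rho of 0.98 with that median over the 8 samples, and 0.95 and 0.94 over the 6 samples without number 3. These are descriptions, since the samples share their libraries and hLcn-2 treatment enters both measures. For DNMT1 the r of 0.96 fell to 0.47 without number 3, and for TET2 the r of -0.90 fell to -0.26 in size, so that both rest largely on these 2 samples. DNMT3A had an r of -0.60 (-0.48 without number 3). DNMT3B changed its sign, from 0.60 to -0.40. So did UHRF1, which had few reads, from 0.55 to -0.058.

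**Figure D4:**
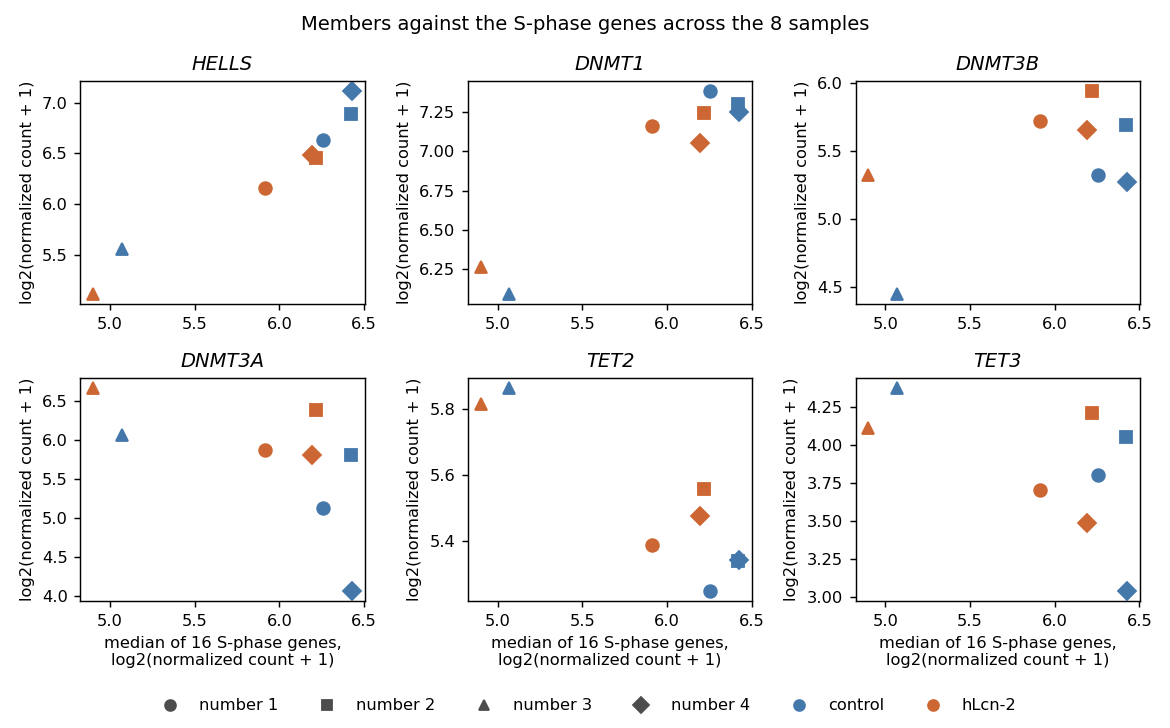
Level of 6 members against the median of 16 S-phase genes in the 8 samples, both as log2(normalized count + 1), with shape for the sample number and color for the group. HELLS follows the S-phase genes also among the 6 samples to the right (r = 0.95), whereas for DNMT1 and TET2 the samples of number 3 lie far to the left of the others.

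Of the 16 S-phase genes, 14 had a negative and 2 a positive log2 fold change, with a median of -0.22. Without the block 0 were called, and with it 2 were called as lower, the proliferation marker MKI67 (log2 fold change -0.51, adjusted p = 0.9999 without and 0.0373 with the block) and RRM2, a subunit of ribonucleotide reductase (-0.58, adjusted p = 0.9999 and 0.0317). Over all genes, 0.282% were called with the block. In the limma fits with the block, no gene was called without pair 3 or without the intensity trend, so that both calls were lost there. In all 4 pairs, 8 of the 16 were lower, MCM6 and E2F1 among them, beside 10.9% of all genes, and 0 were higher. The list's median difference was -0.43, -0.14, -0.32 and -0.21 in pairs 1 to 4, beside -0.48, -0.43, -0.44 and -0.63 for HELLS. The part of the S-phase genes in the difference of HELLS was not tested.

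Each member of sufficient level was also compared with the other genes that had a mean of at least 10 (9006 in all), by Pearson's r over the 8 samples. HELLS was most like MAP4, GADD45GIP1 and CAP1 (each r = 0.99, and 0.98, 0.98 and 0.99 without number 3). DNMT1 was most like PAICS, an enzyme of purine synthesis, and PRC1 and ZWINT, both needed in mitosis. Their r of 0.99 was 0.85, 0.90 and 0.95 without number 3. DNMT3A was most like PRRG3 (0.99), FGFR1OP2 (0.98) and C8orf76 (0.97), with 0.99, 0.97 and 0.95 without number 3. For DNMT3B these were BOD1 (0.99), NIP7 (0.97) and LONRF1 (0.97), with 0.98, 0.90 and 0.86 without number 3. For TET2 they were TRIM23 (0.99), CDC42SE2 (0.98) and COQ9 (0.98), with 0.99, 0.90 and 0.86. TET3 was most like ERN1 (0.98) and ATF6 (0.98), both sensors of unfolded protein in the endoplasmic reticulum, and LYST (0.97), with 0.98, 0.98 and 0.96 without number 3. These are descriptions over 8 samples, and no p is given. The genes were picked as the highest of 9006, so that a high r follows from the choice. The 6 samples without number 3 were among those used to pick them. No shared regulation or function is read from these r values.

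The other genes of the pathway gave no calls in limma without the block or with it. Of 13 partners and regulators of the methyltransferases and of HELLS, 7 were higher and 6 lower, with a median log2 fold change of 0.0046. UHRF2, the relative of UHRF1, had 37.3 ± 3.74 in controls and 30.4 ± 6.85 after hLcn-2 (SD, n = 4 each), and was lower in 4 of 4 pairs (adjusted p = 0.9999 without and 0.424 with the block). EZH2, a histone methyltransferase, was lower in 4 of 4 pairs as well, with a log2 fold change of -0.26. LIG1, which joins the new DNA strands, had one of -0.17 and SETDB1 one of 0.18. Of the 13, 2 were higher and 2 lower in all 4 pairs, beside 9.93% and 10.9% of all genes. DNMT3L and DPPA3 had no row under their symbols.

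Of the 8 readers of methylated CpG, 3 had a positive and 5 a negative log2 fold change (median -0.093). The most different were ZBTB33 with -0.25, MBD1 with -0.20, MBD2 with -0.15 and ZBTB4 with -0.11. MBD2 was lower in 4 of 4 pairs, as the only 1 of the 8 (10.9% of all genes), and 0 were higher. Among 11 genes of base excision and of demethylation by repair, TDG, the glycosylase that removes the oxidised bases made by TET enzymes, had 26.3 ± 2.66 in controls and 29.4 ± 1.59 after hLcn-2 (SD, n = 4 each) and was higher in 4 of 4 pairs. The endonuclease APEX1 had a log2 fold change of 0.43 and XRCC1 one of 0.27, while GADD45B had -0.29 and was lower in 4 of 4 pairs. Of the 11, 1 was higher and 1 lower in all 4 pairs, beside 9.93% and 10.9% of all genes.

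The methyl donor of the DNMT enzymes is S-adenosylmethionine. Of the 10 genes of its cycle tested, 8 had a positive and 2 a negative log2 fold change, with a median of 0.23, and 0 were called. AHCY, which clears the product inhibitor S-adenosylhomocysteine (0.28), was higher in 4 of 4 pairs, and MAT2B (0.32) in 3. Of the 10, 3 were higher and 0 lower in all 4 pairs, beside 9.93% and 10.9% of all genes. MTRR and GNMT had no row under their symbols. AHCYL2 had 0.19. The 9 genes around 2-oxoglutarate, the co-substrate of the TET enzymes, gave a median of -0.11. IDH1 had 172 ± 23.4 in controls and 227 ± 33.3 after hLcn-2 (SD, n = 4 each; log2 fold change 0.39, adjusted p = 0.9999 without and 0.0564 with the block). IDH3A (-0.48) and SDHA (-0.26) were lower and IDH1 and D2HGDH (0.19) higher in 4 of 4 pairs. These are 2 of the 9 in each direction, beside 10.9% and 9.93% of all genes.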

How the data were processed

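CAKI1 cells were sequenced in 8 samples, 4 control and 4 hLcn-2. The authors prepared QuantSeq 3′ libraries with UMI, used STAR for alignment (GRCh38), collapsed reads by UMI, counted genes with HTSeq and removed genes without counts. The versions of STAR and HTSeq, the gene annotation and the strand setting are not given in the sources used here. The values deposited by the authors are a scaled signal, read counts per gene brought to the scale of CPM. In each column 1 read has a fixed worth, and 100% of 134256 values came out as whole reads (tolerance 0.001), which gave the depth. A cell with a decimal comma was read as a decimal point.

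Limma 3.58.1 (R 4.3.3) was run with an intensity trend on log2(normalized count + 1) for genes that reached 1 CPM in 2 samples or more, two-sided, with Benjamini-Hochberg adjustment over all 15593 genes. Fold changes on this scale are understated for low genes. Deviations of same-numbered samples from their group means correlated by 0.48, 0.59, 0.61 and 0.31 across genes. The numbers were therefore taken to pair the samples. Standard errors given with the members are nevertheless those of the fit without the replicate block. With the block they were 0.088 for DNMT1, 0.16 for DNMT3A, 0.12 for DNMT3B and 0.30 for UHRF1. For HELLS, TET1, TET2 and TET3 they were 0.087, 0.23, 0.10 and 0.16. As alternatives, the recovered reads were fitted with edgeR 4.0.16 and DESeq2 1.42.0, and limma was run with the replicate block, other pseudocounts, filters and scalings, and samples left out. Limma and edgeR were also run on simulated counts with a fixed spread and with batch terms drawn gene by gene. That simulation had no joint shift of many genes like that of number 3, so nothing is read from it here. Members and gene lists were chosen with earlier results of these data known. Named are all members, called genes of each list, the 4 list genes with the largest log2 fold change and a mean of at least 10 (of the marker lists PAX8, ALB and those the rule gives), and the 3 genes most like each member. One gene that this rule names is not reported here. Germline targets of DNA methylation formed another list. For S-phase genes, MCM2 to MCM7 and PCNA are named only as contents. Gene positions are from GENCODE 44, and promoters from RefSeq.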

Additional observations from a re-analysis of the deposited data

Results flagged for a closer look

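Of the 16 groups of 4 samples formed by the 8 members, 2 held a sample far from the other 3, where chance gives 1 in 20 groups (0.8). Both were control 3. DNMT1 and TET2, the genes flagged, moved in opposite directions across the 8 samples (r = -0.94). The 2 flags are therefore not independent, and no excess over chance is read from them. DNMT1 was lowest there (67.3 normalized counts), with a gap to the nearest control of 0.851 of the whole range. TET2 was highest there (57.3), with a gap of 0.875. In hLcn-2 sample 3 the same genes had 76.0 and 55.3, again the lowest and the highest of their group. Control 3 also had the lowest summed S-phase level of the controls (951, the others 2341 to 2542). Its 382 and 325 reads for these genes were more than the 229 and 60 of control 4. The part of any of these values in the outlying levels was not tested.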

How the results depend on the processing

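No alternative without the replicate block called a gene, and leaving out 1 sample gave 0 to 0 calls of genes and of members. With the block, limma called 44 genes and 2 members, the quasi-likelihood test of edgeR 233 and 2, and DESeq2 173 and 2. The following combinations with the block were chosen after seeing the data. Pseudocount 5 gave 45 genes and 2 members, the filter on a mean of 10 gave 85 and 2, pseudocount 0.1 gave 8 genes and 0 members, and no intensity trend gave 0 and 0 (1567 genes at an unadjusted p under 0.05). Without pair 1, 2, 3 or 4 there were 14, 3, 0 and 58 genes and 1, 0, 0 and 1 members (DNMT3A). DNMT3A and DNMT3B stayed higher and HELLS and TET1 lower under every alternative run, 29 for each of them and 27 for TET1. With 1 sample left out, log2 fold changes lay between 0.51 and 1.18 for DNMT3A, 0.23 and 0.65 for DNMT3B, and -0.83 and -0.18 for HELLS. For these genes, in this order, the value smallest in size came without control 4, control 3 and hLcn-2 sample 3. TET1 moved from -0.37 to -0.16 with pseudocount 5 and to -0.57 with DESeq2. DNMT1, TET3 and UHRF1 changed sign when single samples were left out. With all samples, TET3 also changed sign in edgeR (-0.047) and DESeq2 (-0.052) without the block. Depth limits UHRF1 and TET1, and TET3 and DNMT3A in control 4.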

Other observations

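A list of 15 germline genes was looked at, chosen as genes that promoter methylation silences in somatic cells. Of these, 5 had a row under their symbol and 4 were tested. TDRKH was not silent in these cells. It had 9.81 ± 2.68 normalized counts in controls and 11.2 ± 1.54 after hLcn-2 (SD, n = 4 each; log2 fold change 0.20). MAEL, SYCP3 and SOHLH2, named after their values were seen, had means of 0.921 to 3.14 in either group. No gene of this list was called by limma with or without the replicate block, and none was higher or lower in all 4 pairs.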
